A study of Mus musculus with 8 samples.

Results

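The genes described here are the receptor subunit Il4ra, the arginases Arg1 and Arg2, the inducible nitric oxide synthase Nos2, and the alternative activation genes Retnla, Chil3, Ear2 and Mgl2. They were found by gene symbol in the HFD and ND expression tables, and all 8 were listed in both, 8 of the 18040 genes listed in either table. RNA-seq had been done on macrophages of the epididymal white adipose tissue (eWAT) of wild-type male C57BL/6J mice, which received either a chow diet (ND) or a high-fat diet with 60% fat (HFD, for 8 weeks) from 6 weeks of age. ARMs were sorted by FACS from cells attached to adipocytes in the floating layer, and SMs (named NARM in the sample titles) from the stromal vascular fraction, which makes a group a physical fraction and not a genetic model. Each of the 4 groups had 2 libraries, with cells pooled from 6 HFD mice or from 10 ND mice per library, so the spread between 2 libraries is that between pools and may be partly technical.

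Macrophages take on an alternatively activated state when IL-4 or IL-13 binds a receptor that contains the chain encoded by Il4ra, after which Janus kinases phosphorylate STAT6 and STAT6 enters the nucleus. Retnla, Chil3, Arg1 and Mgl2 are textbook targets of this pathway in mouse macrophages, and macrophages of lean adipose tissue are known for expressing several of them. Arginine is the shared substrate of arginase and nitric oxide synthase, so the balance of Arg1 and Nos2 has long been used to set alternative against classical activation, the state driven by interferon-gamma and bacterial products.

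In HFD mice, Nos2 (3.29-fold), Chil3 (1.81-fold) and Ear2 (1.81-fold) were higher in ARMs than in SMs, and Arg1 stood at 1.66 times its SM level without passing the threshold. Of these, DESeq2 called Ear2 alone. The Nos2 change rested on 7 to 36 counts in a library and on a count filter passed through the ARM libraries. In ND mice, Retnla was lower in ARMs, at 0.655 of its level in SMs, and no other member passed. Mgl2 (0.994-fold and 0.969-fold) and Arg2 (0.984-fold and 1.06-fold) did not pass in either diet.

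Libraries held 14508824 to 19040133 counts. A member was called where its fold change exceeded 1.5 and its adjusted p lay under 0.05, in edgeR's quasi-likelihood test run separately for each diet and adjusted by Benjamini-Hochberg over all genes tested. Of all genes tested, 4.46% were called higher and 0.292% lower in HFD ARMs (13337 genes), and 3.55% higher and 0.129% lower in ND ARMs (12441 genes). Against this background, 3 of 8 members were called higher and 0 lower in HFD ARMs, while in ND mice 0 of 7 were called higher and 1 lower. Of the 3, Nos2 passed the count filter through the higher counts of the ARM libraries. Its place in this count is thus tied to the direction of its call. At an unadjusted p under 0.05, 4 members were higher and 2 lower in HFD ARMs, and 0 higher and 1 lower in ND ARMs, and DESeq2 called 1 higher and 0 lower (HFD) and 0 higher and 1 lower (ND). Whether the change from SMs to ARMs differed by diet was also tested, and 0 of 8 members were called, beside 0.165% of 13358 genes, with 1 higher and 1 lower at an unadjusted p under 0.05 and 0 by DESeq2. The smallest two-sided p that exact permutation of 2 libraries against 2 allows is 0.333, so every p rests on a spread shared across genes. The share of all genes whose ARM and SM libraries did not overlap was not counted, so non-overlap of a member is description only.

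**Figure D1:**
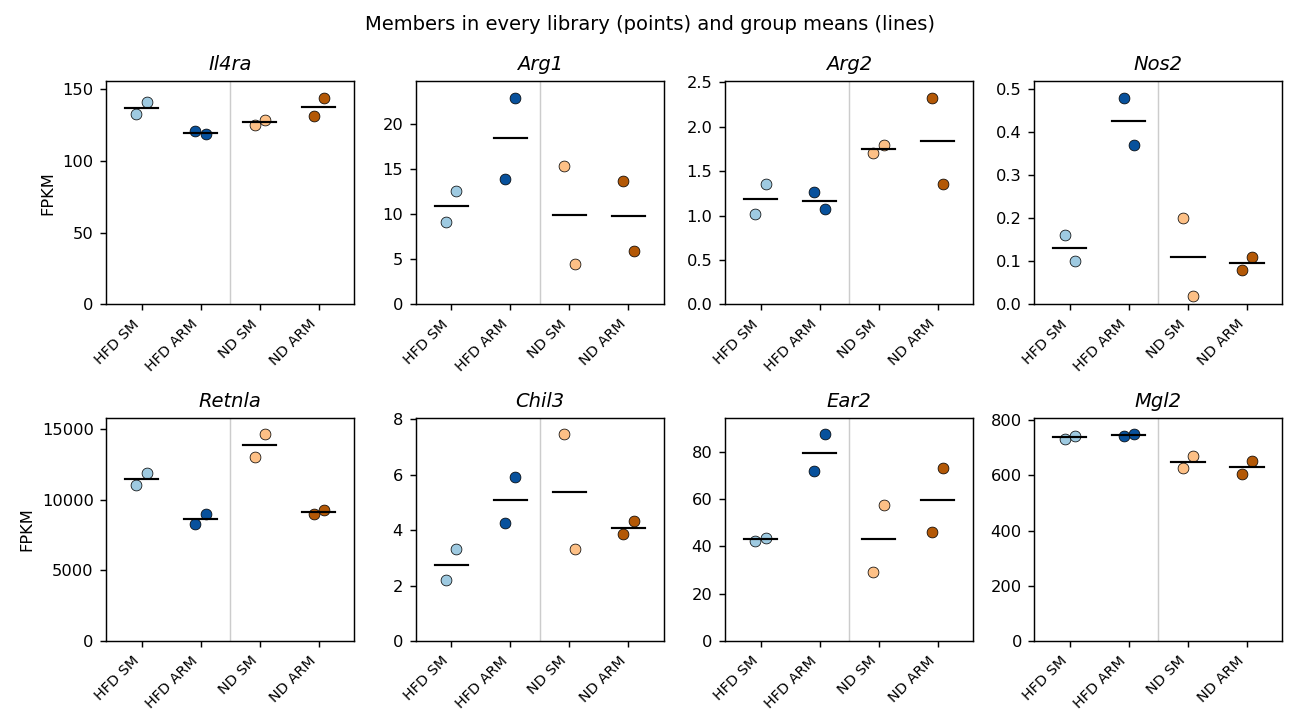
FPKM of each member (y axis, linear, starting at 0) in the 2 libraries (points) of each of the 4 groups, with the group mean as a line. Nos2, Arg1, Chil3 and Ear2 sit higher in both HFD ARM libraries than in both HFD SM libraries, Retnla sits lower in the ARMs of both diets, and Mgl2 hardly moves between ARMs and SMs.

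The members spanned a very wide range of levels, and their order by TPM, a measure per transcript length, was the same in the 4 groups. Retnla came first with group means of 18358 to 28377 TPM, followed by Mgl2 with 1319 to 1593 TPM, Il4ra with 255 to 296 TPM and Ear2 with 89.2 to 170 TPM. Arg1 came next with 20.2 to 39.4 TPM, then Chil3 with 5.96 to 11 TPM, Arg2 with 2.50 to 3.87 TPM and Nos2 with 0.195 to 0.91 TPM. Neighbours in this order did not overlap in any group except Arg1 and Chil3 in ND SMs, where their libraries spanned 9.27 to 31.2 TPM and 6.88 to 15.1 TPM.

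The sequence upstream of Retnla and Chil3 is shown because these are the members for which STAT6 control is best known and which were called in opposite directions, one in each diet. RefSeq upstream sequences (GRCm38.p6) were available for 5 of the 8 members, Il4ra, Retnla, Chil3, Ear2 and Mgl2, and the 250 bases before the start of transcription were searched on both strands. The letters TTC and GAA with 4 bases of any kind (N) between them, the spacing that STAT6 binds, were found upstream of 1 of the 5 members (Retnla) and of 5.85% of the 32851 mouse promoters. TTCNNNGAA, with 3 such bases and the spacing of most other STAT factors, was found upstream of Chil3 alone among the 5, and of 7.02% of promoters. The motifs are palindromic in their fixed letters and did not overlap each other. The capitals mark the match, which in Retnla runs from 145 to 136 bases upstream of the start and in Chil3 from 172 to 164.
Retnla, plus strand of chr16:48842359-48842608: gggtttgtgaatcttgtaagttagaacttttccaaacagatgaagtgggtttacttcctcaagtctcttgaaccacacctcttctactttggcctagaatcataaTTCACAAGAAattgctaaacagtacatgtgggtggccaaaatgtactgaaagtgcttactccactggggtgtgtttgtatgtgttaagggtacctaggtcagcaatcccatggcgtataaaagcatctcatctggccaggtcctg
Chil3, minus strand of chr3:106167565-106167814: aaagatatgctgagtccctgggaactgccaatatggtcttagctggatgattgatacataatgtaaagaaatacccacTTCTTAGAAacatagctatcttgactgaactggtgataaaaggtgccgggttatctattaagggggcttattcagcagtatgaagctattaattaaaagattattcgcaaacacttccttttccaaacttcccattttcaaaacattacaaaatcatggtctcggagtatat
A match of letters is a description of the sequence only, and binding was not measured here.

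Il4ra (Entrez 16190, chr7:125552271-125579474 in GRCm38) encodes the chain shared by the IL-4 and IL-13 receptors. In HFD mice it was at 133 and 141 FPKM in SMs and at 121 and 119 FPKM in ARMs, so both ARM libraries were below both SM libraries. Its log2 fold change there was -0.26 (SE 0.065, adjusted p = 0.0355, edgeR), a decrease that passed the p threshold and was too small for a call. In ND mice it was at 125 and 129 FPKM in SMs and at 131 and 144 FPKM in ARMs, with both ARM libraries above both SM libraries and a log2 fold change of 0.12 (SE 0.10, adjusted p = 0.675, edgeR). The direction thus differed between diets in every library, while the difference of -0.39 (SE 0.12) between the log2 fold changes had an unadjusted p of 0.00462 and an adjusted p of 0.268 in edgeR's fit of all 8 libraries.

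The other genes of the pathway were taken from a list of 16 genes of IL-4 and IL-13 signaling, of which 13 were tested in each diet. None was called higher or lower in either diet by edgeR or by DESeq2, and the median log2 fold change of the list was -0.04 in HFD mice and 0.07 in ND mice, beside -0.01 and -0.02 over all genes tested. At an unadjusted p under 0.05, 0 were higher and 3 lower in HFD ARMs, and 3 were higher and 1 lower in ND ARMs. Stat6, the transcription factor of the pathway, was at 61.4 to 68.3 FPKM in all 8 libraries, with a log2 fold change of 0.03 (SE 0.065) in HFD mice and -0.06 (SE 0.094) in ND mice. Klf4, a transcription factor induced through STAT6, had the highest normalized count of the list, with 1625 and 1505 CPM in HFD SMs and 1333 and 1169 CPM in HFD ARMs (log2 fold change -0.32, adjusted p = 0.0242, edgeR, below the fold threshold). In ND mice Klf4 was at 623 and 748 CPM in SMs and 535 and 596 CPM in ARMs (log2 fold change -0.29, adjusted p = 0.205, edgeR). Jak1, the kinase bound to the Il4ra chain and second in CPM, was within 0.17 of 0 on the log2 scale in both diets. The cytokine genes were nearly silent, with at most 6 counts of Il4 and 4 counts of Il13 in any library, and neither was tested.

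Arg1 (Entrez 11846, chr10:24915207-24927470), the cytosolic arginase that turns arginine into ornithine and urea, was at 9.10 and 12.7 FPKM in HFD SMs and at 13.97 and 22.98 FPKM in HFD ARMs. The libraries of the 2 cell types did not overlap, and the log2 fold change was 0.73 (SE 0.21, adjusted p = 0.0524, edgeR), just outside the threshold. It was called without replicate 1 of the HFD ARMs (log2 fold change 1.04, adjusted p = 0.0287, edgeR) and without replicate 2 of the HFD SMs (0.99, adjusted p = 0.00552), and was at 0.35 without replicate 2 of the HFD ARMs (adjusted p = 0.470). DESeq2 gave 0.74 with an adjusted p of 0.429.

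In ND mice Arg1 was at 15.4 and 4.47 FPKM in SMs and at 13.8 and 5.98 FPKM in ARMs. The libraries numbered 1 held 304 and 297 counts and those numbered 2 held 94 and 115, so the spread was between numbers and not between cell types. The log2 fold change was 0.01 (SE 0.40, adjusted p = 0.989, edgeR), and with a library left out it lay between -0.72 and 1.14. The SE of 0.40 includes the spread between numbers, because the fit had no term for the number. Without such a term, it leaves room in ND mice for a change of the size measured in HFD mice. The difference between diets of 0.70 (SE 0.60) had an adjusted p of 0.893 in edgeR's fit of all 8 libraries, also without that term.

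Arg2 (Entrez 11847, chr12:79130788-79156301), the mitochondrial arginase, was close to the low end of expression, at 1.02 and 1.36 FPKM in HFD SMs and 1.27 and 1.07 FPKM in HFD ARMs. In ND mice it was at 1.70 and 1.79 FPKM in SMs and 2.33 and 1.36 FPKM in ARMs. The cell types overlapped in both diets, with log2 fold changes of -0.02 (SE 0.30, HFD) and 0.09 (SE 0.33, ND) and 25 to 48 counts in a library.

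Of 27 genes of arginine transport, arginine synthesis and polyamine metabolism, 24 were tested in each diet and 0 were called by edgeR or DESeq2. Its median log2 fold change was 0.07 (HFD) and 0.05 (ND), and 2 genes in HFD mice and 3 in ND mice were higher at an unadjusted p under 0.05, with 0 lower. Slc3a2, the heavy chain of several amino acid transporters, had the highest CPM (381 to 507), and Sat1, which acetylates spermidine and spermine, followed (351 to 440). The arginine transporter Slc7a1 was at 3.87 and 4.31 FPKM in HFD SMs and at 5.26 and 5.29 FPKM in HFD ARMs (log2 fold change 0.34, adjusted p = 0.0246, edgeR). Spermine synthase (Sms) was at 3.20 and 3.25 FPKM in HFD SMs and at 4.2 and 4.59 FPKM in HFD ARMs (log2 fold change 0.42, adjusted p = 0.0307, edgeR). Both genes passed the p threshold and were below the fold threshold, and they were named after their values were seen. Odc1, the first enzyme of polyamine synthesis from the ornithine that arginase makes, was also picked afterwards and was at 31.4 to 42.6 FPKM, with log2 fold changes of 0.14 (SE 0.091, HFD) and 0.32 (SE 0.10, ND).

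Nos2 (Entrez 18126, chr11:78920787-78960226), which makes nitric oxide from arginine in classically activated macrophages, was the lowest member. In HFD mice it had 12 and 7 counts in SMs and 36 and 26 counts in ARMs, or 0.16 and 0.10 against 0.48 and 0.37 FPKM, with no overlap. It passed the count filter in HFD mice through the higher counts of the ARM libraries. The log2 fold change was 1.72 (SE 0.40, adjusted p = 0.0253, edgeR), the largest of any member in either diet. The call was lost when replicate 1 of the HFD ARMs (1.46, adjusted p = 0.232), replicate 2 of the HFD ARMs (1.94, adjusted p = 0.115) or replicate 2 of the HFD SMs (1.39, adjusted p = 0.113) was left out, and with DESeq2 (1.73, adjusted p = 0.108). Per transcript length Nos2 stayed far under Arg1 in the HFD ARM libraries, at 1.03 and 0.79 TPM against 29.9 and 48.8 TPM.

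In ND mice Nos2 had 12 and 1 counts in SMs and 5 and 6 counts in ARMs, too few for the ND test. The ND ARM values lay between those of the 2 ND SM libraries, and 1 SM library held nearly all of the counts of its group. The difference between diets was 1.94 on the log2 scale (SE 0.99, adjusted p = 0.719, edgeR), and it was -0.64 without replicate 1 of the ND SMs.

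Among 9 other genes of nitric oxide synthesis, 9 passed the count filter for HFD and 7 for ND. Nos3, the endothelial nitric oxide synthase, was the only one called, at 0.28 and 0.34 FPKM in HFD SMs and 1.13 and 0.97 FPKM in HFD ARMs (log2 fold change 1.76, SE 0.25, adjusted p = 0.0016, edgeR). At an unadjusted p under 0.05 in edgeR, 2 of the 9 genes were higher and 0 lower in HFD ARMs. The second was Nos1, named after its values were seen (log2 fold change 2.27, adjusted p = 0.0531, edgeR). It had only 1.82 and 2.38 estimated counts in HFD SMs and 10.4 and 9.84 in HFD ARMs. In ND mice Nos3 was at 0.14 and 0.10 FPKM in SMs and 0.26 and 0.40 FPKM in ARMs (log2 fold change 1.28, SE 0.49, adjusted p = 0.194, edgeR). In ND mice 0 of the 7 genes were called by edgeR or DESeq2, and 1 was higher and 1 lower at an unadjusted p under 0.05. The summed level of 8 endothelial marker genes moved with it, from 43.3 and 30.4 TPM in HFD SMs to 106 and 99.6 TPM in HFD ARMs, and from 20.7 and 24.0 to 25.7 and 56.6 TPM in ND mice. Of these 8 genes, edgeR called 7 higher in HFD ARMs and 1 in ND ARMs (DESeq2 7 and 0), and none was at 0 in any group. Their part in the Nos3 and Nos2 results was not tested. In a bulk library, fewer cells of a type and less RNA per cell cannot be told apart. Gch1, the first enzyme in making the cofactor of nitric oxide synthases, was picked after its values were seen and was at 18.8 and 19.4 FPKM in HFD SMs and 18.2 and 17.97 FPKM in HFD ARMs (log2 fold change -0.11, SE 0.067). In ND mice Gch1 was at 12.3 and 11.8 FPKM in SMs and 14.6 and 13.01 FPKM in ARMs (log2 fold change 0.20, SE 0.12), and the difference between diets was -0.33 (unadjusted p = 0.0198, adjusted p = 0.496, edgeR).

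**Figure D2:**
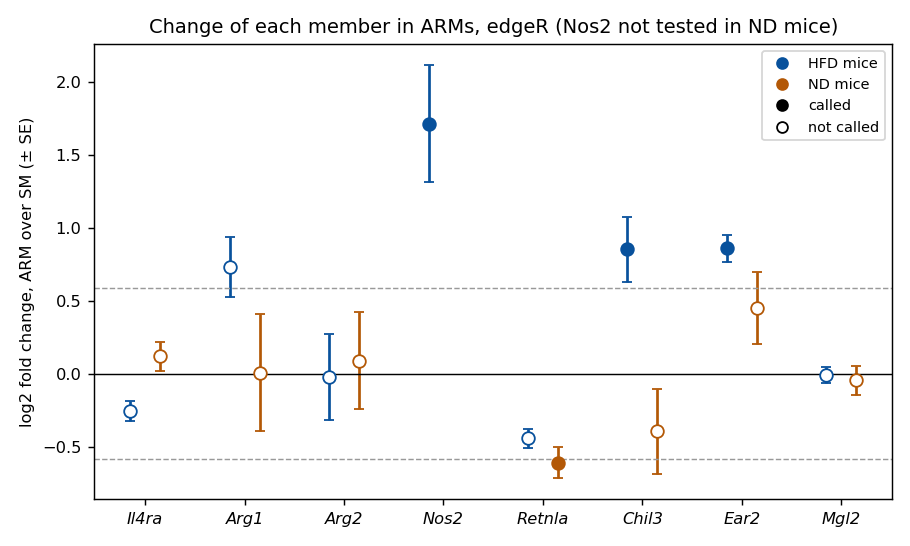
Log2 fold change of each member in ARMs over SMs (y axis, points, with 1 SE as bars) in HFD mice and ND mice, filled where the gene was called and open where it was not, with dashed lines at a fold change of 1.5. Nos2, Chil3 and Ear2 are filled above the upper line in HFD mice, and Retnla is filled just below the lower line in ND mice at -0.61.

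Retnla (Entrez 57262, chr16:48842609-48844461), which encodes a secreted resistin-like protein and has the STAT6-type match shown in its upstream sequence, was the most abundant transcript of all by TPM in every SM library and ranked between first and the third in the ARM libraries. It took 0.63% and 0.679% of all counts in HFD SMs, 0.471% and 0.512% in HFD ARMs, 0.586% and 0.658% in ND SMs, and 0.40% and 0.412% in ND ARMs. Both ARM libraries were therefore below both SM libraries in each diet. In ND mice it was at 13033 and 14608 FPKM in SMs and at 8993 and 9227 FPKM in ARMs, a log2 fold change of -0.61 (SE 0.11, adjusted p = 0.0027, edgeR). That call was 1 of the 16 decreases among all genes in ND mice, and without replicate 2 of the ND SMs the log2 fold change was -0.52 (adjusted p = 0.0172), below the fold threshold.

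In HFD mice Retnla was at 11034 and 11895 FPKM in SMs and at 8249 and 8968 FPKM in ARMs. Its log2 fold change was -0.44 (SE 0.065, adjusted p = 0.00222, edgeR), so the decrease passed the p threshold and missed the fold threshold, and with a library left out it lay between -0.49 and -0.39. The difference between diets was 0.15 (SE 0.12, adjusted p = 0.872, edgeR). The summed level of 11 macrophage markers such as Adgre1, Csf1r and Lyz2 was 32194 to 35147 TPM in HFD mice and 35902 to 37261 TPM in ND mice, and 0 of the 11 were called in either diet by edgeR or DESeq2, with 1 higher and 3 lower in HFD ARMs and 2 higher and 0 lower in ND ARMs at an unadjusted p under 0.05. Both HFD ARM sums were below both HFD SM sums, and the ND sums overlapped. The sums of 10 adipocyte markers were 103 and 108 TPM in HFD SMs, 443 and 475 TPM in HFD ARMs, 182 and 234 TPM in ND SMs and 373 and 618 TPM in ND ARMs. Adipocyte marker RNA was thus higher in the ARMs of both diets, with 9 of the 10 markers called in HFD mice by edgeR and by DESeq2, 8 (edgeR) or 4 (DESeq2) called in ND mice and none at 0, and its part in the decrease of Retnla was not tested.

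Chil3 (Entrez 12655, chr3:106147554-106167564), which encodes the secreted chitinase-like protein Ym1, was far lower than Retnla. In HFD mice it was at 2.20 and 3.31 FPKM in SMs and at 4.26 and 5.90 FPKM in ARMs (64 and 96 against 120 and 165 counts), without overlap. This gave a log2 fold change of 0.85 (SE 0.22, adjusted p = 0.0387, edgeR). Without replicate 1 of the HFD ARMs it was 1.06 (adjusted p = 0.0887), without replicate 2 of the HFD ARMs 0.62 (adjusted p = 0.368) and without replicate 1 of the HFD SMs 0.59 (adjusted p = 0.106), and DESeq2 gave 0.86 (adjusted p = 0.0624), so none of these called it.

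In ND mice Chil3 was at 7.45 and 3.31 FPKM in SMs and at 3.85 and 4.32 FPKM in ARMs, with the ARM libraries inside the range of the SM libraries. The log2 fold change was -0.39 (SE 0.29, adjusted p = 0.621, edgeR), and leaving out replicate 1 of the ND SMs gave 0.29 and leaving out replicate 2 gave -0.87 (adjusted p = 0.045, called). The difference between diets was 1.23 (SE 0.44) with an unadjusted p of 0.0148 and an adjusted p of 0.438 in edgeR's fit of all 8 libraries. Chil3 is also known from monocytes and neutrophils. The 6 other monocyte markers summed to 141 and 169 TPM in HFD SMs and 169 and 212 TPM in HFD ARMs, and to 359 and 354 TPM in ND SMs and 378 and 439 TPM in ND ARMs, of which edgeR called Vcan alone, in ND ARMs (log2 fold change 0.72), and DESeq2 none. With Chil3 counted, 3 of 7 monocyte markers were higher and 0 lower in HFD ARMs at an unadjusted p under 0.05, and 2 higher and 0 lower in ND ARMs. Plac8, a monocyte marker picked after its values were seen, was at 1.079 on the log2 scale for ARMs over SMs of HFD mice (adjusted p = 0.0852, edgeR) and at -0.68 for ND mice (adjusted p = 0.336), with a difference between diets of 1.74 (unadjusted p = 0.00266, adjusted p = 0.219). The 12 neutrophil markers summed to 155 to 206 TPM in HFD mice and 371 to 648 TPM in ND mice, with S100a9 called lower in ND ARMs by edgeR (log2 fold change -1.43, adjusted p = 0.0119) and none by DESeq2. In HFD mice the log2 fold change of S100a9 was 0.87 (unadjusted p = 0.00786, adjusted p = 0.0677, edgeR), and its difference between diets was 2.29 (unadjusted p = 0.000503, adjusted p = 0.104). Of the neutrophil markers tested, 1 of 6 was higher and 0 lower in HFD ARMs at an unadjusted p under 0.05, and 1 of 8 higher and 3 lower in ND ARMs. Plac8 and S100a9 thus had the same signs as Chil3 in both diets, and other markers of the 2 lists did not. Log2 fold changes were above 0 in HFD ARMs for 6 of 7 monocyte markers, Chil3 included, and 6 of 6 neutrophil markers tested. In ND ARMs 2 of 7 monocyte markers, Vcan among them, and 2 of 8 neutrophil markers tested were above 0, opposite in sign to Chil3. Ly6g and Ltf were at 0 in both HFD SM libraries and no other neutrophil or monocyte marker was at 0 throughout a group. The part of these cells in the level of Chil3 was not tested.

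Ear2 (Entrez 13587, chr14:44102654-44103531), a ribonuclease of the eosinophil-associated family that tissue macrophages also express, was the only member called in HFD mice by both edgeR and DESeq2. In HFD mice it was at 42.5 and 43.6 FPKM in SMs and at 71.9 and 87.5 FPKM in ARMs. Its log2 fold change was 0.86 (SE 0.092, adjusted p = 0.000354, edgeR), or 1.81-fold, and it lay between 0.73 and 0.98 and stayed called with any 1 of the 4 libraries left out. DESeq2 called it as well (0.86, adjusted p = 2.01e-09), while the edgeR fit of all 8 libraries gave 0.85 with an adjusted p of 0.0511.

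In ND mice Ear2 was at 29.0 and 57.5 FPKM in SMs and at 46.2 and 73.3 FPKM in ARMs, so the ranges overlapped, and here the libraries numbered 2 were the higher ones in both cell types. The fit had no term for the number, so the SE given next includes this spread. The log2 fold change was 0.45 (SE 0.24, adjusted p = 0.439, edgeR), and without replicate 2 of the ND SMs it was 1.03 (adjusted p = 0.00108, called). The difference between diets was 0.40 (SE 0.34, adjusted p = 0.891, edgeR). The eosinophil gene Epx was in neither table, and Prg2 had at most 2 counts in any library. Prg2 was at 0 in both ARM libraries of each diet. The 7 eosinophil markers listed for HFD summed to 5.5 and 6.07 TPM in SMs and 8.23 and 8.46 TPM in ARMs. The 6 listed for ND summed to 9.11 and 7.96 TPM in SMs and 8.45 and 7.96 TPM in ARMs. Ear2 alone was at 58.9 to 186 TPM over the 8 libraries. Of the markers, 5 (HFD) and 3 (ND) were tested, and 0 were called by edgeR or DESeq2. At an unadjusted p under 0.05 in edgeR, 1 was higher in HFD ARMs (Ear1, log2 fold change 1.48) and 0 in ND ARMs, with 0 lower. Ear1 is 95.1% identical to Ear2 in coding bases and is counted in these sums. Its estimated counts may therefore not be independent of those of Ear2. The part of eosinophils in the level of Ear2 was not tested.

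Ear2 has near-identical relatives, and its counts were not whole numbers in the 4 HFD libraries and 1 ND library, so reads had been assigned in parts. Coding sequences read from the GENCODE M21 transcripts as the longest open reading frame were identical at 97.0% of aligned bases between Ear2 and Ear10, 95.1% for Ear1, 87.7% for Ear6 and 77.9% for Ear14. The first 90 coding bases of Ear2 and Ear1 are shown because they make this likeness visible, with the 2 differing bases in capitals.
Ear2: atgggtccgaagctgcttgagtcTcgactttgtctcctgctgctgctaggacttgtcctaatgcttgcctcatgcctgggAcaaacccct
Ear1: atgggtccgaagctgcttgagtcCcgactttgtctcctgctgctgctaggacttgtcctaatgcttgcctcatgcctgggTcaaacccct
Ear1 was deposited at 4.96 and 9.11 estimated counts in HFD SMs and 18.8 and 19.8 in HFD ARMs, beside 559 and 573 against 916 and 1106 for Ear2, and at no more than 1 count in any ND library. When the counts of those of Ear1, Ear6, Ear10 and Ear14 that a table listed were added to the counts of Ear2, a choice made after seeing the data, the log2 fold change in HFD mice was again 0.86 (adjusted p = 0.000331, edgeR).

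Mgl2 (Entrez 216864, chr11:70130125-70137542), the C-type lectin CD301b of alternatively activated macrophages and dendritic cells, was the second most abundant member and had the smallest range, 0.407 in log2 CPM over the 8 libraries. It was at 732 and 743 FPKM in HFD SMs and 742 and 749 FPKM in HFD ARMs, and at 627 and 672 FPKM in ND SMs and 606 and 653 FPKM in ND ARMs. The log2 fold change was -0.01 (SE 0.057) in HFD mice and -0.05 (SE 0.099) in ND mice. Its relative Clec10a (73.2% identical coding bases) was at 500 and 464 FPKM in HFD SMs and 415 and 374 FPKM in HFD ARMs, with a log2 fold change of -0.32 (adjusted p = 0.023, edgeR, below the fold threshold), and at -0.19 (adjusted p = 0.395) in ND mice. Mgl2 counts were not whole in any library. The 8 dendritic cell markers summed to 249 and 258 TPM in HFD SMs and 189 and 190 TPM in HFD ARMs, and to 230 to 273 TPM in ND mice, and edgeR called 0 of them in either diet. At an unadjusted p under 0.05, 0 were higher and 2 lower in HFD ARMs and 2 higher and 1 lower in ND ARMs, and DESeq2 called 1 lower in HFD ARMs. None was at 0, and their part in the level of Mgl2 was not tested.

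Other alternative activation genes were taken from a list of 16, of which 14 were tested in each diet. In HFD ARMs 1 was called higher, and in ND ARMs 3, with 0 lower by edgeR or DESeq2. At an unadjusted p under 0.05, 4 were higher and 5 lower for HFD, and 3 higher and 2 lower for ND. The list median was -0.05 for HFD and -0.08 for ND. Transglutaminase Tgm2 was the one called in both, at 9.04 and 9.70 FPKM in HFD SMs against 17.4 and 23.5 FPKM in HFD ARMs (log2 fold change 1.10, SE 0.12, adjusted p = 0.00039, edgeR), and at 0.77 in ND mice (SE 0.15, adjusted p = 0.00741). Il1rn, the antagonist of the interleukin 1 receptor, was at 51.4 and 58.7 FPKM in ND SMs and 94.0 and 104 FPKM in ND ARMs (log2 fold change 0.85, SE 0.10, adjusted p = 0.000238, edgeR), and at 0.46 in HFD mice (adjusted p = 0.0271, below the fold threshold). Myc, a transcription factor induced by IL-4 in macrophages, had a log2 fold change of 0.81 in ND mice (SE 0.17, adjusted p = 0.011, edgeR) and 0.21 in HFD mice (adjusted p = 0.0815). Ccl24, an eosinophil-attracting chemokine picked after its values were seen, was lower in the ARMs of both diets below the fold threshold, at -0.45 in HFD mice (adjusted p = 0.0052, edgeR) and -0.35 in ND mice (adjusted p = 0.047).

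On the classical side, 19 of 22 listed genes were tested in each diet. In HFD ARMs 2 were called higher, Cxcl9 (log2 fold change 1.10, adjusted p = 0.00209, edgeR) and Ccl5 (0.95, adjusted p = 0.00776), both chemokines that attract T cells. In ND ARMs 4 were called higher, Cxcl9 (1.21, adjusted p = 0.00371, edgeR), the related chemokine Cxcl10 (0.78, adjusted p = 0.00182), the prostaglandin synthase Ptgs2 (0.65, adjusted p = 0.00262) and Tnf (0.59, adjusted p = 0.00217). Tnf, the central inflammatory cytokine, was at 573 and 620 FPKM in HFD SMs and 797 and 859 FPKM in HFD ARMs, and its log2 fold change there was 0.44 (adjusted p = 0.00221, edgeR, below the fold threshold). In neither diet was a gene of the list called lower by edgeR or DESeq2, while at an unadjusted p under 0.05, 8 were higher and 3 lower for HFD and 5 higher and 1 lower for ND. The median of the list was 0.12 (HFD) and 0.14 (ND). Cxcl9 was low, at 1.43 to 6.31 FPKM over the 8 libraries, where Tnf was at 369 to 859 FPKM.

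**Figure D3:**
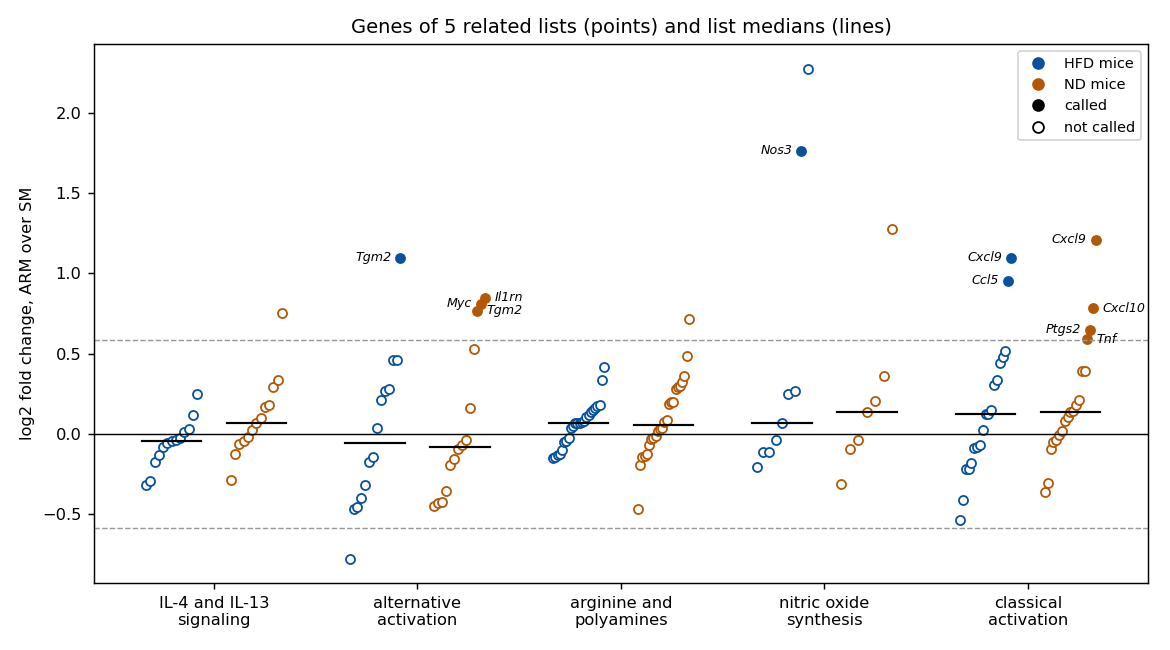
Log2 fold change in ARMs over SMs (y axis) of each tested gene of 5 related lists (points, filled and named where called) in HFD mice and ND mice, with the list median as a line and dashed lines at a fold change of 1.5. All 5 medians lie between -0.08 and 0.14 in both diets, and the called genes, which include Tgm2, Nos3 and Cxcl9, all lie above 0.

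Levels in HFD mice were set beside those in ND mice within each cell type as values only, because the HFD and ND tables had been produced in different ways and diet and table cannot be told apart. The transcript length implied by count and FPKM was 571 bases for Retnla in the HFD table and 445 to 451 bases in the ND table, and for Ear2 it was 691 and 563 to 569 bases. Shares over all genes were taken by FPKM, for genes at 1 FPKM or more in at least 2 of the 4 libraries compared. In SMs, 23.9% of 10873 such genes were above their ND level in both HFD libraries and 53.2% below it. In ARMs these shares were 26.2% and 48.1% of 11113 genes. Nos2 was under 1 FPKM in every library, and no shares were computed by TPM or CPM. Of the members in SMs, Mgl2 and Il4ra were above their ND level in both HFD libraries, Retnla and Arg2 below, and the other 4 overlapped. In ARMs, Arg1, Nos2 and Mgl2 were above, Retnla, Arg2 and Il4ra below, and Chil3 and Ear2 overlapped. By CPM the SM libraries of the 2 diets overlapped for Il4ra, at 574 and 624 CPM (HFD) against 574 and 594 CPM (ND). By TPM and CPM, Chil3 in ARMs also lay above its ND level in both HFD libraries, and so did Ear2 in ARMs by CPM.

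Arg1 in ARMs was 1.87 times as high in HFD mice as in ND mice by FPKM and 2.07 times by TMM-normalized CPM, and Nos2 in ARMs 4.47 and 4.70 times, with no overlap between diets on either scale or by TPM. In SMs the ratios were 1.10 and 1.25 for Arg1 and 1.18 and 1.19 for Nos2, with overlapping libraries. Mgl2 was 1.14 (SMs) and 1.18 (ARMs) times its ND level by FPKM and stayed above it in every library by TPM and CPM. Il4ra was 0.87 of its ND level in ARMs by FPKM and 0.781 by CPM, with every HFD ARM library below both ND ARM libraries. Arg2 was at 0.682 of its ND level in SMs and 0.634 in ARMs by FPKM, and its ARM libraries overlapped by CPM.

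The direction for Retnla depended on the scale. By FPKM it was lower in HFD mice, at 0.83 of its ND level in SMs and 0.945 in ARMs. By CPM, which uses no transcript length, it was higher, at 1.09 times in SMs, where libraries overlapped, and 1.21 times in ARMs, where they did not. The ARM against SM decrease held on each of the 3 scales plotted and in both diets.

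**Figure D4:**
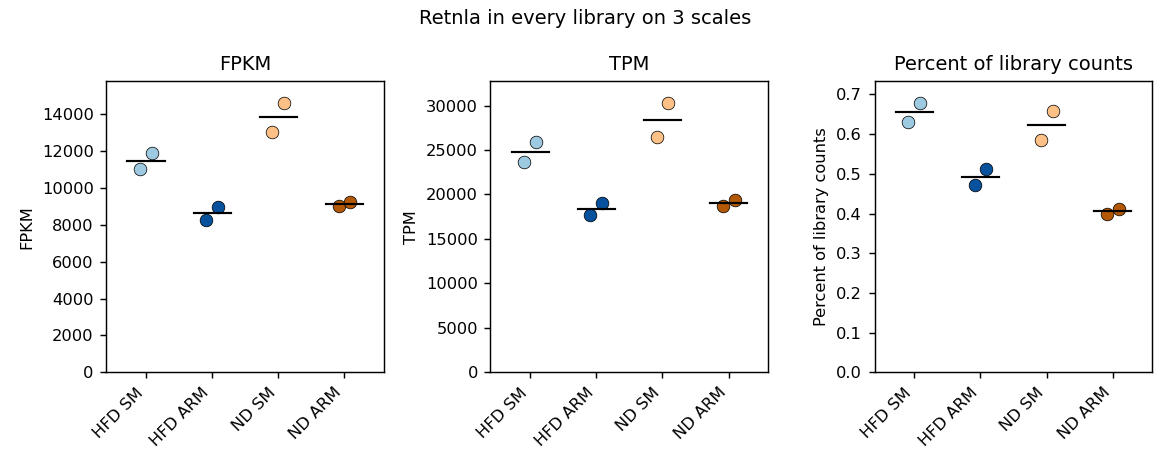
Retnla in the 2 libraries (points) and as the mean (line) of each group as FPKM, as TPM and as the percent of all counts of a library (y axes, linear, starting at 0). ARMs lie below SMs of the same diet in all 3 panels, while ND ARMs lie above HFD ARMs by FPKM, overlap them by TPM and lie below them by percent of counts.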

How the data were processed

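The authors deposited 1 table per diet, which lists estimated counts, FPKM and TPM of each gene by library. The deposited estimated counts were not whole for 32.3% to 32.9% of genes in HFD libraries and for 8.55% to 9.36% in ND libraries. The deposited FPKM and TPM values are scaled for library size and transcript length by the authors. The build named in the submitters' processing notes was mm10, and the aligner and counting program are not given in the sources used here. Gene positions and upstream sequences came from RefSeq (GRCm38.p6, the same assembly) by Entrez ID.

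Estimated counts were rounded and fitted with edgeR 4.0.16 in R 4.3.3 (TMM, filterByExpr, quasi-likelihood test, Benjamini-Hochberg adjustment), each diet by itself, and in 1 fit of 8 libraries for the difference between diets. CPM are TMM-normalized over the 8 libraries. Fold changes are ARM over SM. Alternatives were DESeq2 1.42.0, its size factors or library totals in edgeR, other count filters, the cutoff of the methods section (log2 fold change over 0.6, unadjusted p under 0.05), a joint fit of the 8 libraries, a block for replicate number, limma 3.58.1 on log2(FPKM + 1) and log2(FPKM + 0.1), and each library left out. The pipeline was tested on simulated data. Replicates differed by more than counting noise (chi-square of 4.05 to 9.58 per gene on average).

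The members and the gene lists were chosen with earlier results of these data known. Named in the text are all members, every called gene of each list or its 2 genes of highest CPM, and marker sums. Genes said to be picked afterwards are named too. So are the 3 genes nearest in profile to a member whose log2 CPM, with a constant added, had a range over 1. Stat6, Il4, Il13, Clec10a, Epx and Prg2 were named outside this rule, with their values already seen, for their known roles, as the pathway's factor and ligands, the relative of Mgl2 and defining eosinophil genes. The mean columns of the tables were not used. Figures were drawn with matplotlib in Python.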

Additional observations from a re-analysis of the deposited data

Results flagged for a closer look

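Il4ra moved in opposite directions in the 2 diets in every library: both HFD ARM libraries were below both HFD SM libraries, and both ND ARM libraries were above both ND SM libraries. The ND change was 0.12 on the log2 scale (SE 0.10, adjusted p = 0.675, edgeR). How many of all genes had such opposite directions was not counted. The difference between the log2 fold changes was -0.39 (SE 0.12, unadjusted p = 0.00462, adjusted p = 0.268, edgeR), so it did not pass correction over the 13358 genes tested, of which 0.165% passed. It kept its sign under each alternative run, between -0.45 and -0.29 with a library left out, and its adjusted p was 0.121 with DESeq2.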

How the results depend on the processing

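In HFD mice, 3 members were called higher in the reported fit. DESeq2, no filter on low counts and both filtered limma fits on FPKM each called 1 (Ear2), while the fit of all 8 libraries and limma on log2(FPKM + 1) without a filter called 0. With a library left out the number was 1 to 3. In ND mice, limma on log2(FPKM + 1) without a filter called 0 members lower in place of 1 (Retnla). With a library left out, 0 to 1 were called higher (Ear2, without replicate 2 of the SMs) and 1 lower, which was Retnla except without replicate 2 of the SMs, where it was Chil3. The cause was not tested.

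Signs changed at members with log2 fold changes near 0 or with a split between replicates. In HFD mice Arg2 was at 0.00456 with library totals and between -0.214 and 0.20 with a library left out. Mgl2 was at 0.0197 with library totals, 0.00129 with 10 counts in every library, 0.0155, 0.0156 and 0.0155 in the limma fits and between -0.0181 and 0.00322 with a library left out. In ND mice Arg1 was at -0.00131 with DESeq2, -0.00373 without a filter, and with a library left out Arg1 lay between -0.718 and 1.14, Arg2 between -0.352 and 0.405, Chil3 between -0.866 and 0.294 and Mgl2 between -0.109 and 0.0111. With a library left out, the difference between diets lay between -0.403 and 1.46 for Arg1, -0.435 and 0.349 for Arg2, -0.643 and 2.87 for Nos2, -0.0159 and 0.107 for Mgl2 and -0.17 and 0.841 for Ear2. The HFD to ND log2 ratio reversed for Retnla by CPM (0.122 in SMs, 0.276 in ARMs) and for Ear2 in SMs by TPM (0.0615) and CPM (0.324).

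Same-numbered libraries deviated together with r = 0.041 in HFD mice and 0.144 in ND mice over 13358 genes, and with 0.011 and 0.405 over the 5062 genes of higher count (mean log2 CPM over 5). The libraries thus shared deviations by number in ND mice and hardly in HFD mice, and with 2 numbers and no label that explains them, they were not taken as pairs. With the replicate number as a block, 4 members were called higher in HFD mice, the fourth being Arg1 (0.72, adjusted p = 0.00091, edgeR), 1 was lower in ND mice, Ear2 in ND mice was at 0.48 (adjusted p = 0.000333, below the fold threshold), and 0 differed between diets. Of 421 values of the members under alternatives, 361 kept their direction and side of the threshold. Low counts limited Nos2, which had 1 to 36 counts in a library, and Arg2.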

Other observations

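Of the members, 4 had a range over 1 in log2 CPM across the 8 libraries, with a constant added to each CPM before the logarithm. These members were compared with all genes of at least 5 CPM by the root mean square difference of these values after centring. This is a description over 8 libraries in which the 2 libraries of a group share a cell type and a diet. Nearest to Ear2 were Coro2a (0.158), Nes (0.17) and Tcf7l2 (0.181), against a root mean square of 0.536 for the deviations of Ear2 itself. Nearest to Chil3 were Mycbp (0.29), Lzic (0.295) and Lrg1 (0.302), against 0.439 for Chil3. Nearest to Nos2 were Crip2 (0.347), Vwf (0.354), an endothelial marker, and Spry1 (0.356), against 0.648 for Nos2. Nos2 itself lay at 0.0624 to 1.97 CPM, under the 5 CPM asked of the genes compared with it. Its profile thus rests on few counts and on the added constant, and its nearest genes are uncertain. Nearest to Arg1 were Tk1 (0.42), Abcg1 (0.422) and Mcm10 (0.454), against 0.729 for Arg1.

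Among relatives of the members, Retn, the resistin gene that adipocytes express, was called higher in HFD ARMs, at 1.99 and 3.04 FPKM in SMs and 9.81 and 12.8 FPKM in ARMs (log2 fold change 2.14, SE 0.25, adjusted p = 0.000577, edgeR), opposite in direction to its relative Retnla. In ND mice Retn was at 3.13 and 7.99 FPKM in SMs and 10.2 and 18.1 FPKM in ARMs (log2 fold change 1.31, SE 0.36, adjusted p = 0.05, edgeR, not called). Of the 10 adipocyte markers, which include Retn, edgeR called 9 higher in HFD ARMs and 8 in ND ARMs, and DESeq2 called 9 and 4.

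Markers of other cells also differed between ARMs and SMs. Of 8 fibroblast markers, edgeR called 5 higher in HFD ARMs and 7 in ND ARMs (DESeq2 3 and 7), with sums of 267 and 244 TPM in HFD SMs, 363 and 444 TPM in HFD ARMs, 161 and 224 TPM in ND SMs and 467 and 683 TPM in ND ARMs. Of 7 mesothelial markers, 0 were called by edgeR or DESeq2 in HFD ARMs (1 higher at an unadjusted p under 0.05) and 6 by edgeR in ND ARMs, with sums of 16.5 to 38.0 TPM in HFD mice and of 10.3 and 14.1 TPM in ND SMs and 38.2 and 50.2 TPM in ND ARMs. The 11 lymphocyte markers listed summed to 29.5 to 47.6 TPM, and 0 were called by edgeR or DESeq2, with 0 (HFD) and 1 (ND) higher at an unadjusted p under 0.05.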
